A study of Mus musculus with 12 samples.

Results

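The replication-dependent clustered histone genes encode the histones that package newly copied DNA, and they were followed here in the testes of young mice as the germ cells first matured. The members were all genes whose symbol, taken from the Ensembl ID through the annotation of mm9, begins with Hist1h, Hist2h, Hist3h or Hist4h, except the germ cell variants Hist1h1t, Hist1h2ba and Hist1h2aa. The rule used no measured value, and it took 67 of the 70 genes with such a symbol and of 37675 genes in all. Mice of the inbred strain C57BL/6NHsd were untreated, and their whole testes were taken, without cell sorting, on postnatal day (PND) 7, 14, 17, 21 and 28. There were 2 mice at each of the 5 ages, and the 2 barcode libraries made from each PND 7 mouse were added together here. The RNA was depleted of ribosomal RNA rather than selected by poly(A), so transcripts without a poly(A) tail could be counted. Levels are given as normalised RPKM (reads per kilobase of exon, scaled to the reads of the library). They were computed from the deposited counts, with library sizes rescaled by the TMM factors of edgeR. These factors adjust for differences in library composition but need not remove them, and results with other scalings are given at the end.

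Most messenger RNAs end in a poly(A) tail, but the mRNAs of replication-dependent histones end after a short stem-loop that is bound by the stem-loop binding protein SLBP. Their synthesis and stability are coupled to S phase, the part of the cell cycle in which DNA is copied, and they are then degraded. The core histones H2A, H2B, H3 and H4 form the nucleosome, and the linker histone H1 binds the DNA that enters and leaves it. In the testis, spermatogonia divide by mitosis and spermatocytes copy their DNA a last time before meiosis, after which testis variants and then transition proteins and protamines replace much of the histone complement.

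The members divided into 5 H1, 19 H2A, 18 H2B, 12 H3 and 13 H4 genes, of which 64 were annotated as protein coding and 3 as pseudogenes (Hist1h2aj, Hist2h3c2 and Hist3h2bb-ps). Cluster 1 held 53 members on chromosome 13, of which 52 lay in chr13:21807632-23856283 (mm9) and Hist1h2al lay apart at chr13:51298057-51298434. Cluster 2 held 10 members in chr3:96023839-96082924, cluster 3 held 3 in chr11:58762413-58770176 and cluster 4 was Hist4h4 alone at chr6:136752589-136752900. The exons of 58 members were a single unspliced block, and the median exon length was 530 bases, with a range from 312 to 3821.

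The stem-loop that ends these mRNAs was searched for as a 6-base stem around a 4-base loop in the 200 bases of mm9 after the stop codon. The letters of stem and loop also had to fit a fixed pattern of histone stem-loops. Without the pattern, a 6-base stem was found in 60 of the 64 coding members and in 1878 of 21866 other coding genes (8.59%). With it, the stem-loop was found in 56 of the 64 coding members (87.5%) and in 7 of 21866 other coding genes (0.032%). These 7 were Hist1h1t, Hist1h2aa, Hist1h2ba, H2afx, Ly6f, 1700014N06Rik and 2010107G12Rik. In the members it began 23 to 58 bases after the stop codon, with a median of 30.5. Among all 67 members, pseudogenes included, 58 carried it in 5 forms, and the forms split by class. The form of Hist1h1a was shared by 40 members, among them all 5 H1 genes, and by no H4 gene. The form of Hist1h4c was found in 8 members, all of them H4, and 2 further forms were seen in the H4 genes Hist1h4b and Hist1h4j and in Hist1h4a alone. The form of Hist1h2bk was found in 7 members of the H2A, H2B and H3 classes. The stem-loops of 6 members on which the results turn are shown with 5 bases on each side, in the direction of the gene, with the stem and loop in capitals.
Hist1h1a, chr13:23856256-23856281, plus strand: ccaacGGCTCTTTTCAGAGCCaccaa
Hist1h1b, chr13:21871701-21871726, minus strand: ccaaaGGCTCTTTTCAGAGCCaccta
Hist1h2bk, chr13:22128164-22128189, plus strand: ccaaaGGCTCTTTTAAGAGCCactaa
Hist1h2bp, chr13:21879787-21879812, plus strand: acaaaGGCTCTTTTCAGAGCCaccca
Hist1h4c, chr13:23789953-23789978, minus strand: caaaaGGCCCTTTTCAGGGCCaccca
Hist3h2a, chr11:58768669-58768694, plus strand: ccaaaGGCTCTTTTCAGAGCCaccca
No match to the pattern was found in this window in the coding members Hist1h2al, Hist1h2an, Hist1h3g, Hist1h4i, Hist2h2ac, Hist2h2bb, Hist2h2be and Hist2h4, which says only that these letters were absent from it. Hist1h3g, Hist1h4i, Hist2h2ac and Hist2h4 held a 6-base stem with other letters.

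Promoter sequences, from 250 bases before to 50 bases after an annotated start, were matched in RefSeq (GRCm38.p6) for 58 members. Letters were searched on both strands. The CCAAT box, CCAAT, was present in all matched H1 (5), H2A (16), H2B (15) and H3 (10) promoters but in 3 of 12 H4 promoters, beside 37.9% of all 27025 promoters. The TATA box, TATAAA, was present in 33 of 58, against 14.2% of all promoters. The H1 box, AAACACA, is a letter string known from H1 promoters, and it was present in 4 of 5 H1 genes, in 2 of the other members and in 7.14% of all promoters. The H1 gene without it was Hist1h1a, the member with the highest level, and its promoter is shown with that of Hist1h1b, whose level fell most between PND 7 and 28. Capitals mark the letters of these 3 motifs on either strand.
Hist1h1a, chr13:23763418-23763717 (GRCm38.p6), plus strand: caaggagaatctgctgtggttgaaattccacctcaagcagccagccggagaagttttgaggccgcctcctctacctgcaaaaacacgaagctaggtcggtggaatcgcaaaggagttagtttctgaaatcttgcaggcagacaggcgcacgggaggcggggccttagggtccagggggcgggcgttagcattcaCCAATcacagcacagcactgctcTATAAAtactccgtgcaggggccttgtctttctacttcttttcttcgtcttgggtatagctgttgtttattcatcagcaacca
Hist1h1b, chr13:21780576-21780875 (GRCm38.p6), minus strand: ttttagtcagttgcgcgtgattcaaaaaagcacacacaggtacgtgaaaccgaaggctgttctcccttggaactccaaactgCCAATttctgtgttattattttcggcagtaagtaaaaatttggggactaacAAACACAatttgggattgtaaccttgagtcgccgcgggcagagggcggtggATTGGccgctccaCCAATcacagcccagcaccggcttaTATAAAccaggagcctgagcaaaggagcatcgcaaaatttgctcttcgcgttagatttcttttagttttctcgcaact
Both held CCAAT and TATAAA, and a match to a short string is a description of the sequence only.

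Many members are near-identical copies, and the study's methods name unique reads, of 50 bases, as those counted. The share of each member's exons that could give a unique read was therefore computed from mm9. All 50-base windows were unique in Hist1h1a, Hist1h1b, Hist2h2bb and Hist4h4, and the share was 77.8% or more in the H1 class. The median was 32.9% in H2A, 49.7% in H2B, 41.2% in H3 and 57.0% in H4, and 33 of 67 members were under 50%. No window was unique in Hist1h2ao, Hist1h2ap, Hist1h2bq, Hist1h2br, Hist2h2aa1 and Hist2h2aa2. Even so, Hist1h2ao and Hist2h2aa1 held 168 and 384 reads over the 10 mice, beside 4 in Hist1h2ap and 0 in Hist2h2aa2. How such reads were assigned is not given in the sources used here. Across the 67 members, which are not independent replicates, the unique share and the mean normalised RPKM had a Spearman's rho of 0.49. The counts of members with little unique sequence are therefore uncertain, and reads could have been lost or assigned to a copy. Exons of 9 members also overlapped those of another gene, among them Hist3h2a with Trim17 and Hist2h2aa1 with Hist2h3c1, and counting by strand is not named in the study's methods.

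**Figure D1:**
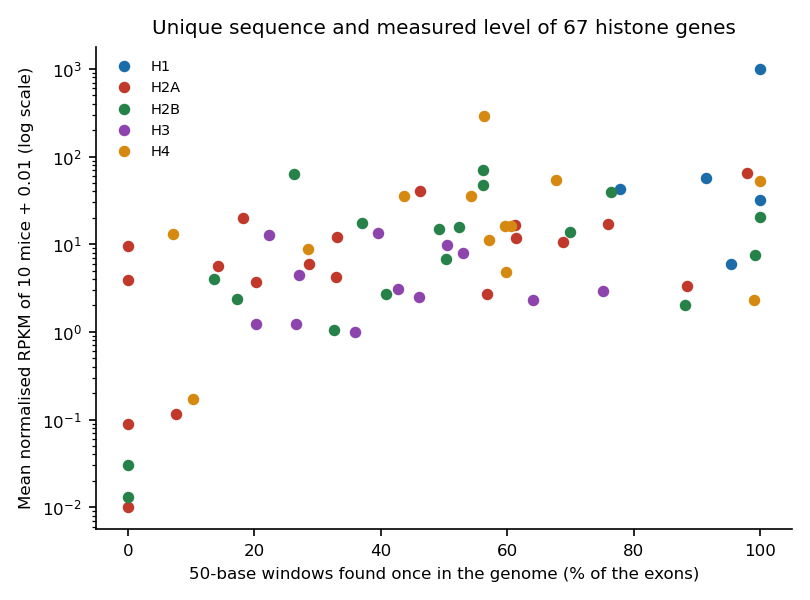
Share of 50-base windows of the exons that occur once in mm9 (x axis, percent) against the mean normalised RPKM of 10 mice plus 0.01 (y axis, log scale), with 1 point per member and colours for the 5 classes. Hist1h1a, at 100%, is the highest point, and the 6 members with the lowest levels have 10.2% or less.

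The levels spanned 3 orders of magnitude and a single H1 gene took a large part of the reads. The members drew 0.0686% to 0.259% of a mouse's counts, and Hist1h1a, the linker histone H1.1, drew 36.9% to 53.1% of those. Of the 67 members, 59 passed the filter on low counts and 8 did not, which were Hist1h2aj, Hist1h2ap, Hist1h2bf, Hist1h2bq, Hist1h2br, Hist1h4m, Hist2h2aa2 and Hist2h3b. The mean normalised RPKM of the 59 ran from 0.994 to 1001 with a median of 11.9, and 8 members had at least 50. The leading members by class after Hist1h1a were the core histone genes Hist1h4c (288.3 as mean normalised RPKM of 10 mice), Hist1h2bb (69.4), Hist3h2a (65.6) and Hist1h3b (13.6).

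Total counts per mouse ran from 3994026 to 13559548, and the tissue identity was checked with marker lists. Summed normalised CPM, which are counts scaled to equal library sizes, of 11 Sertoli cell markers were highest at PND 7 (2154 and 2571) and lowest at PND 28 (589.3 and 755.1). The sum of 9 spermatid markers ran from 2.60 at PND 7, where Acrv1, Tnp2, Prm2, Prm1 and Crisp2 were at 0 in both mice, to 9729 at PND 28. PND 14 mouse 1 stood apart in some genes of spermatids, with a normalised RPKM of 14.2 for the spermatid histone gene Hils1 beside 1.16 in PND 14 mouse 2.

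The summed level of all members was higher at PND 14 and PND 17 than at PND 7 and lower at PND 21 and PND 28. The PND 7 mice had 1777 and 1668 CPM, the PND 14 mice 2043 and 2441, the PND 17 mice 2026 and 2160, the PND 21 mice 771.9 and 1490 and the PND 28 mice 961.8 and 816.0. Every PND 21 and PND 28 mouse was below every younger mouse. Over the 10 mice Hist1h1a made up 46.3% of this sum. Without it the sum was 1067 ± 19.8 (SD, n = 2) at PND 7, 1118 ± 151 at PND 14 and 1009 ± 6.12 at PND 17. It was then 613.1 ± 225 at PND 21 and 531.6 ± 99.0 at PND 28. Without Hist1h1a, both PND 17 mice (1005 and 1014) and PND 14 mouse 1 (1011) thus lay below both PND 7 mice (1081 and 1053). In bulk tissue, fewer cells of a type and less RNA per cell cannot be told apart.

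The classes differed in the age of their highest sum. The H1 sum was 931.2 ± 34.2 CPM (SD, n = 2) in the PND 7 mice, 1352 ± 124 in the PND 14 mice, 1263 ± 85.1 in the PND 17 mice, 596.3 ± 310 in the PND 21 mice and 427.1 ± 2.22 in the PND 28 mice, and 81.8% of it was Hist1h1a. Without Hist1h1a, the H1 sum was highest in the PND 7 mice, with 275.9 ± 23.2 CPM, and its mean was lower with each later age. The PND 14 mice then had 227.8 ± 6.35, the PND 17 mice 179.1 ± 3.79 and the PND 28 mice 69.75 ± 1.9. Single genes also made up much of other classes, with Hist1h4c at 52% of the H4 sum and Hist3h2a at 58.0% of the H2A sum. The H4 sum of the PND 7 mice was 154.3 ± 3.22 CPM, which went to 300.1 ± 105 in the PND 14 and 308.3 ± 14.3 in the PND 17 mice, and then to 188.9 ± 122 and 143.5 ± 41.4. The H3 sum was highest at PND 7, at 72.4 ± 5.09 CPM, with 47.4 ± 14.2 in the PND 14 mice and 25.3 ± 6.07 in the PND 28 mice. H2A (279.8 ± 7.56, 279.6 ± 53.2 and 144.8 ± 29.8 in the PND 7, 14 and 28 mice) and H2B (284.9 ± 48.7, 263.1 ± 14.6 and 148.2 ± 23.5) lay near the same level at the first ages and lower at the last. Of the 59 tested members, 30 had their highest mean at PND 7, 13 and 11 had it at PND 14 and 17, 3 had it at PND 21 and 2 had it at PND 28, and the lowest mean fell at PND 28 in 36. In H2A, 12 of 16 members were highest at PND 7, whereas 6 of 12 H4 members were highest at PND 17.

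**Figure D2:**
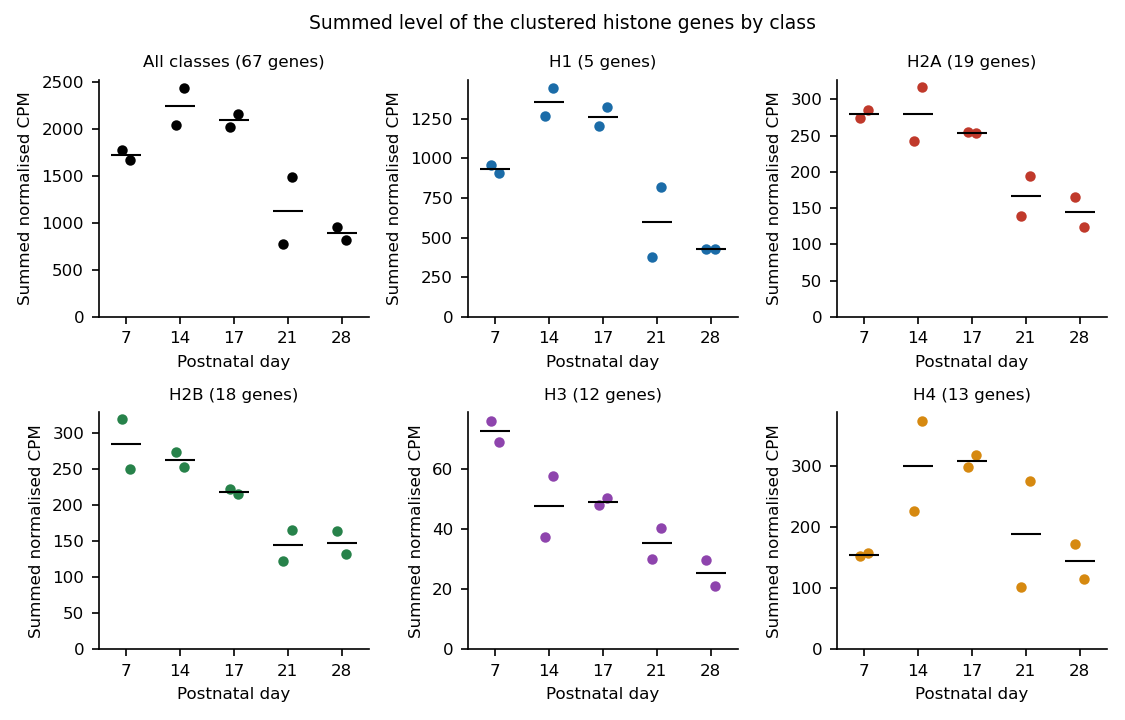
Summed normalised CPM of all members and of each class (y axes, from 0) by postnatal day (x axes), with 1 point per mouse and a line at the mean of the 2 mice. The sum over all classes lies between 1668 and 2441 in the 6 mice up to PND 17 and between 771.9 and 1490 in the 4 older mice.

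The 2 mice of PND 21 differed from each other in most members. In mouse 2, 51 of 59 tested members were higher than in mouse 1, with a median ratio of 1.78, while the median ratio of all tested genes was 1.02. Hist1h1a was at 425.5 and 961.3 normalised RPKM in these mice and Hist1h4c at 149.2 and 443.4. At PND 14, 46 of 59 members were higher in mouse 2, with a median ratio of 1.25. At the other ages the median ratio was between 0.852 and 0.992. Small structural RNAs were here nucleolar, Cajal body, spliceosomal, 7SK and Y RNAs and the RNAs of RNase P and MRP, which lack a poly(A) tail. They took 2.65% and 5.17% of the counts in PND 21 mice 1 and 2, and 3.88% and 7.71% in PND 14 mice 1 and 2. The PND 17 mice had 7.76% and 6.11%, the PND 28 mice 2.57% and 3.12% and the PND 7 mice 3.53% and 2.94%. Mitochondrial ribosomal RNA took 17.0% and 27.1% in the PND 21 mice. The part of these RNAs in the differences between mice was not tested.

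**Figure D3:**
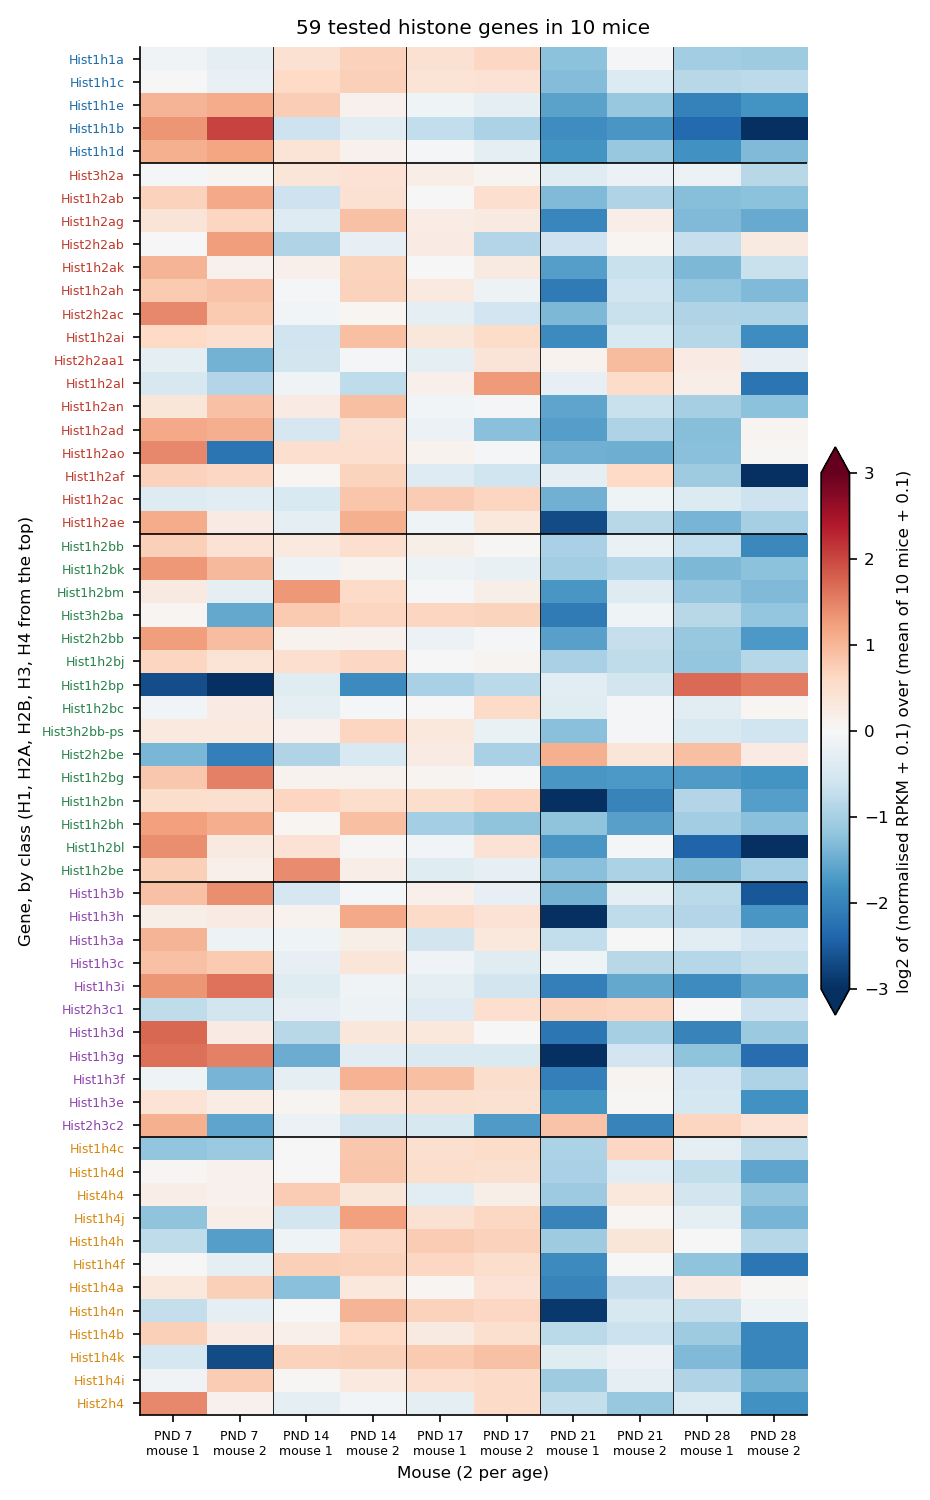
Level of the 59 tested members (rows, by class and then by mean level) in each of 10 mice (columns), as the log2 of normalised RPKM plus 0.1 over the mean of 10 mice plus 0.1. Most rows are red up to PND 17 and blue at PND 21 and 28, PND 21 mouse 1 is bluer than mouse 2, and Hist1h2bp and Hist2h2be are blue at PND 7 and on the red side at PND 28.

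Between PND 14 and 17 on the one side and PND 21 and 28 on the other, members of every class fell. This comparison set 4 mice against 4, and a gene was called at a Benjamini-Hochberg adjusted p under 0.05 over the 16860 genes tested and a fold change of at least 2 in edgeR's quasi-likelihood test. Of the 59 members 34 were called, beside 29% of all tested genes. Called lower were 32 members, beside 8.03% of all genes, and 2 were called higher, beside 21% of all. The median log2 fold change was -1.23 for the members and -0.05 for all tested genes, and 53 of 59 members were below 0. In 32 members the 4 older mice all lay below the 4 younger ones, which was so for 19.1% of all genes. All 5 H1 genes fell, with 8 of 16 H2A, 10 of 15 H2B, 3 of 11 H3 and 6 of 12 H4 genes. Without PND 21 mouse 1, 20 members were called lower and 1 higher, and with small structural RNAs and mitochondrial genes left out of the fit, 31 were called lower and 2 higher.

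In all 5 linker histone genes the older mice lay below the younger ones. Hist1h1a had 1381 and 1628 normalised RPKM in the PND 14 mice, 1366 and 1535 in the PND 17 mice, 425.5 and 961.3 in the PND 21 mice, with 482.3 and 474.5 in the PND 28 mice. The groups did not overlap, and the log2 fold change was -1.36 ± 0.24 (SE, edgeR adjusted p = 0.000964). Hist1h1c, which encodes H1.2, was at 85.4, 92.9, 74.8 and 76.5 in the younger mice and at 22.9, 42.4, 31.9 and 32.7 in the older. Its log2 fold change was -1.33 ± 0.19 (edgeR adjusted p = 0.000271). Hist1h1e, which encodes H1.4, was at 72.2, 47.1, 39.3 and 35.3 and then at 14.0, 19.6, 10.6 and 12.3, again without overlap. Its log2 fold change was -1.76 ± 0.21 (edgeR adjusted p = 7.33e-05), and that of Hist1h1d, the gene of H1.3, was -1.60 ± 0.22 (edgeR adjusted p = 0.000227).

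Among the core histones the largest called falls were in Hist1h2bn, Hist1h2bl, Hist1h3h and Hist1h2bg, whose log2 fold changes were -2.62, -2.09, -1.94 and -1.85. The unique share of their 50-base windows was 13.55%, 17.2%, 22.3% and 50.3%, so the counts of the first 3 are uncertain. Hist1h2bn, an H2B gene, held 81 reads in the 4 younger mice and 10 in the 4 older, and Hist1h2bl held 35 and 7, so these folds rest on few reads. The call of Hist1h2bl was lost in 14 of 20 alternatives, among them leaving out any 1 of the 8 mice of these ages. Its log2 fold changes over all alternatives lay between -3.39 and -1.31. Hist1h3h, an H3 gene, was at 13.8, 28.6, 19.2 and 17.4 normalised RPKM in the younger mice and at 1.47, 7.52, 6.98 and 3.78 in the older, without overlap (edgeR adjusted p = 0.00469). The better measured Hist1h2bm, an H2B gene with 1304 reads in the younger mice and 262 in the older, fell by 1.60 ± 0.30 on the log2 scale, and its mice at 117.6, 71.0, 45.8 and 54.0 did not overlap those at 14.1, 36.0, 20.8 and 18.9. Hist1h4d, an H4 gene, fell by 1.33 ± 0.27 on that scale. Hist1h4c, the most abundant H4 gene, did not pass: its mice were at 290.9, 508.2, 401.0 and 423.9 and at 149.2, 443.4, 240.9 and 165.9, and they overlapped through PND 21 mouse 2. Hist3h2a and Hist4h4, with log2 fold changes of -0.65 and -0.77, were not called either. The H2A genes Hist1h2ab and Hist1h2ag were called lower, at -1.31 ± 0.28 (edgeR adjusted p = 0.00332) and -1.26 ± 0.43 (edgeR adjusted p = 0.03165). The call of Hist1h2ag was lost in 7 of 23 alternatives and that of Hist1h2ab in 1. Their unique shares were 18.25% and 46.2%. The H3 gene Hist1h3a, at -0.35, was not called.

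Of the 4 steps between neighbouring ages, that from PND 17 to PND 21 had the median farthest from 0. Fold changes were below 0 in 53 of 59 members, with a median log2 fold change of -0.97, and in 44 of 59 (74.6%) both PND 21 mice lay below both PND 17 mice, beside 30.9% of all tested genes. Only 5 members were called, all lower, beside 10.3% of all genes called, of which 9.29% were higher and 1.05% lower. They were the H1 genes Hist1h1c, Hist1h1d and Hist1h1e, at log2 fold changes of -1.21, -1.31 and -1.14, and the H2B genes Hist1h2bn and Hist1h2bg, at -3.45 and -1.81. Hist1h1d was at 5.68 and 4.88 normalised RPKM at PND 17 and at 1.62 and 2.61 at PND 21. Hist1h2bn held 42 reads at PND 17 and 2 at PND 21, so its ratio is imprecise. The count of calls depended on single mice: it was 0 without PND 17 mouse 1, PND 17 mouse 2 or PND 21 mouse 1, 12 without PND 21 mouse 2, and 2 without PND 28 mouse 1 or PND 28 mouse 2, which enter through the shared spread. The log2 fold changes of the called H1 genes lay between -1.72 and -0.83 over all alternatives and kept their sign, those of Hist1h2bn between -7.15 and -2.48 and those of Hist1h2bg between -1.92 and -1.52.

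From PND 7 to PND 14 members moved in both directions. In 18 of 59 members both PND 14 mice lay below both PND 7 mice, beside 26.6% of all tested genes, and in 15 both lay above, beside 34.1%. Higher calls were made for 2 of 59 members and lower calls for 3, and the 5 calls stand beside 18.9% of all genes, of which 13.5% were higher and 5.43% lower. Hist1h1b, which encodes H1.5, was at 79.2 and 130.0 normalised RPKM at PND 7 and at 20.7 and 24.9 at PND 14, and it fell by 2.19 ± 0.35 on the log2 scale (edgeR adjusted p = 0.00139). The other 4 linker histone genes did not pass, with log2 fold changes of 0.78 for Hist1h1a, 0.77 for Hist1h1c, -0.85 for Hist1h1d and -0.59 for Hist1h1e. Hist1h2bk, an H2B gene, was at 154.0 and 123.4 and then at 56.1 and 67.2, and it fell by 1.17 ± 0.24. Hist1h3i, an H3 gene with 104 reads at PND 7 and 30 at PND 14, fell by 1.73 ± 0.55. Hist1h4c rose from 127.0 and 133.0 to 290.9 and 508.2, a log2 fold change of 1.62 ± 0.44 (edgeR adjusted p = 0.0244).

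The H2B gene Hist1h2bp also rose, at 2.41 and 1.14 normalised RPKM at PND 7 and 12.3 and 4.10 at PND 14, a log2 fold change of 2.17 ± 0.55 (edgeR adjusted p = 0.0182). Its higher PND 14 value was in mouse 1, the mouse with more Hils1. The H4 class had a median log2 fold change of 0.62 and the H3 class one of -0.71, and 8 of 12 H4 members lay above 0 and 8 of 11 H3 members below, against a median of 0.11 for all tested genes. The count of calls was 3 without PND 14 mouse 1 or without PND 7 mouse 2, and 10 without PND 7 mouse 1. With library totals for scaling, 3 members were called higher and 2 lower. The call of Hist1h2bp was lost without PND 14 mouse 1 or PND 7 mouse 2, that of Hist1h4c without either PND 7 mouse or PND 14 mouse 2, that of Hist1h2bk without PND 7 mouse 1 and that of Hist1h3i without any 1 of 9 mice. With the other settings counted too, the calls of Hist1h2bp and Hist1h4c were each lost in 6 of 23 alternatives. That of Hist1h2bk was lost in 1 and that of Hist1h3i in 16. Log2 fold changes over all alternatives lay between 1.12 and 2.87 for Hist1h2bp, 1.15 and 1.94 for Hist1h4c, -1.32 and -0.97 for Hist1h2bk and -1.88 and -1.42 for Hist1h3i.

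**Figure D4:**
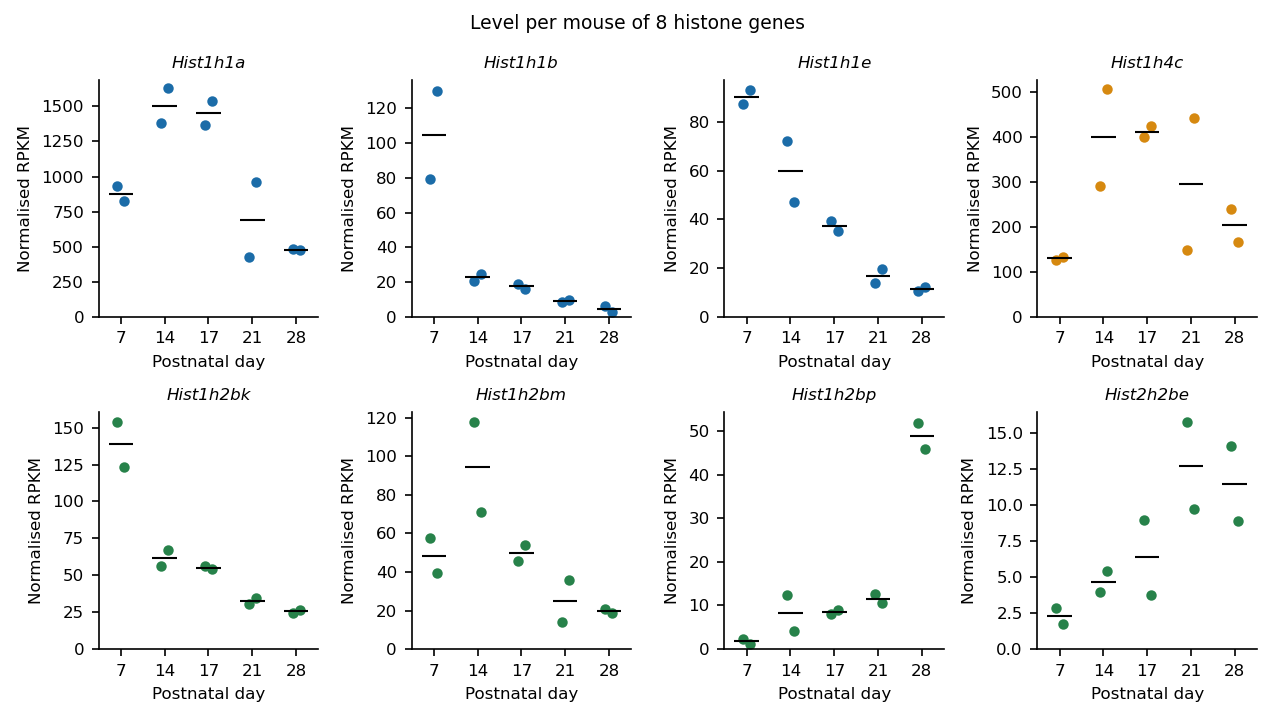
Normalised RPKM (y axes, from 0) by postnatal day (x axes) of 8 members, with 1 point per mouse and a line at the mean of the 2 mice. Hist1h1a and Hist1h4c are highest at PND 14 and 17, Hist1h1b, Hist1h1e and Hist1h2bk at PND 7, Hist1h2bm at PND 14, and Hist1h2bp and Hist2h2be at PND 28 and PND 21.

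From PND 14 to PND 17 none of the 59 members was called by edgeR, and none of all tested genes was (0%). At an unadjusted p under 0.05 there were 4 members, and DESeq2 also called 0. The median log2 fold change of the members was -0.12, and the largest differences among them ran from -1.66 to 1.18. Hist1h1a was at nearly the same level, with a log2 fold change of -0.05 ± 0.33.

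From PND 21 to PND 28 a single member was called, Hist1h2bp, beside 7.66% of all tested genes, of which 7.37% were higher and 0.297% lower. It was at 12.5 and 10.7 normalised RPKM in the PND 21 mice and at 51.7 and 45.8 in the PND 28 mice, a log2 fold change of 2.08 ± 0.48 (edgeR adjusted p = 0.0225). The mice did not overlap, but without any 1 of these 4 mice no member was called, and the log2 fold change of Hist1h2bp over all alternatives lay between 1.77 and 2.21. The call of Hist1h2bp was lost in 8 of 23 alternatives, among them library totals for scaling and limma on log2(RPKM + 1). The median log2 fold change of the members was -0.18, and 42 of 59 were below 0.

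Over the whole span from PND 7 to PND 28, 30 of 59 members were called lower and 2 higher. The 32 calls stand beside 55.6% of all tested genes, but the lower calls of all genes were 23.4%, beside 32.2% higher. In 43 of 59 members both PND 28 mice lay below both PND 7 mice, beside 37.4% of all tested genes. The median log2 fold change was -1.53 for the members and 0.10 for all tested genes. Hist1h1b fell most, from 79.2 and 130.0 normalised RPKM to 6.24 and 2.80, a log2 fold change of -4.46 ± 0.41 (edgeR adjusted p = 6.11e-06) that kept its call in every alternative. Hist1h1e went from 87.4 and 93.1 to 10.6 and 12.3, and Hist1h2bk from 154.0 and 123.4 to 24.8 and 26.5, with log2 fold changes of -2.98 ± 0.30 and -2.44 ± 0.25. The H3 genes Hist1h3i and Hist1h3g were at log2 fold changes of -3.28 and -3.26 with 7 and 5 reads in the PND 28 mice. Hist1h2bl had 32 reads at PND 7 and 1 at PND 28. The abundant genes Hist1h1a and Hist1h1c, at -0.87 and -0.70, did not reach the fold required.

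Lower calls came from every class, with 3 of 5 H1, 9 of 16 H2A, 9 of 15 H2B, 5 of 11 H3 and 4 of 12 H4 members. Of the members called lower, 23 were called in both this comparison and that of PND 14 and 17 with PND 21 and 28, which share the PND 28 mice, 7 in the former alone and 9 in the latter alone. Without PND 28 mouse 1 or without PND 28 mouse 2 the calls numbered 20, with 18 lower. The calls of Hist1h3g and Hist1h2bl were lost without either of these mice. With the other settings counted too, they were lost in 4 of 23 and 3 of 20 alternatives. Log2 fold changes over all alternatives lay between -4.05 and -2.55 for Hist1h3g and between -6.70 and -2.30 for Hist1h2bl.

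**Figure D5:**
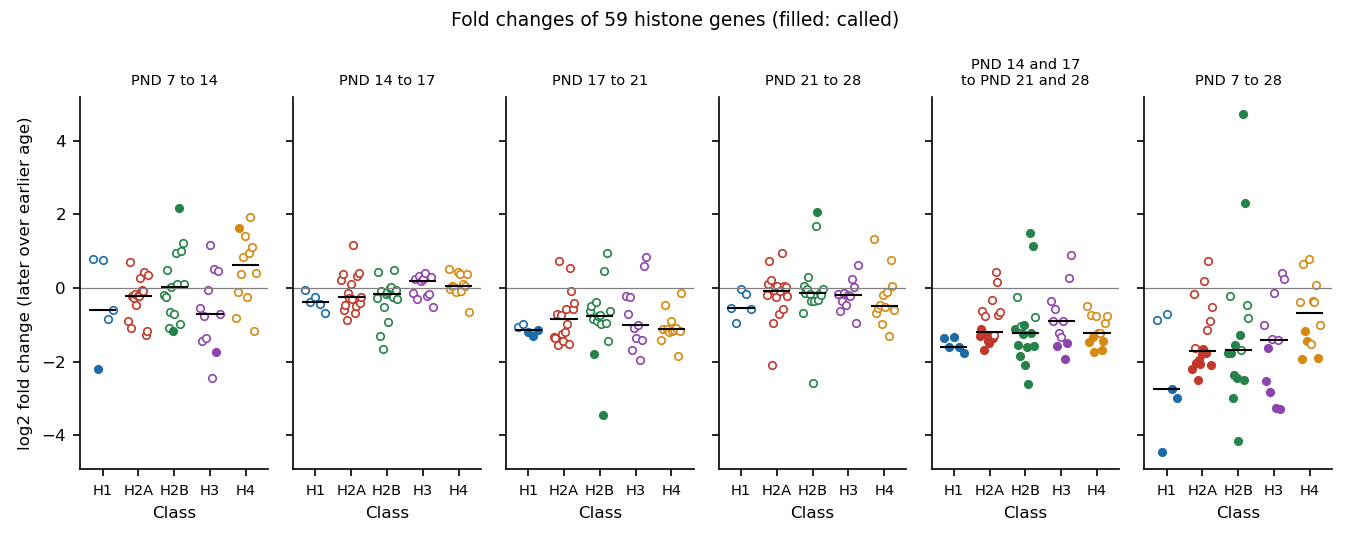
Log2 fold change of the 59 tested members (y axis, later over earlier age) by class (x axes) in 6 comparisons, with 1 point per gene, filled where called, and a line at the class median. In the comparison of PND 14 and 17 with PND 21 and 28 all class medians are below -0.9, and Hist1h2bp and Hist2h2be are the filled points above 0.

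The only members called higher from PND 7 to 28 or from PND 14 and 17 to PND 21 and 28 were 2 H2B genes, Hist1h2bp and Hist2h2be, while 9 and 6 of 59 members had fold changes above 0 in these comparisons. Hist1h2bp had its highest level at PND 28, where it was 27.4 times its PND 7 mean. From PND 7 to PND 28 its log2 fold change was 4.72 ± 0.56 (edgeR adjusted p = 3.59e-05), and from PND 14 and 17 to PND 21 and 28 it was 1.51 ± 0.34 (edgeR adjusted p = 0.00455). Both calls held in all 23 alternatives. The annotation gives this gene a single-exon transcript at chr13:21879377-21879845 (mm9), which contains the stem-loop shown above, and a spliced transcript whose first exon ends at 21879760, before the stem-loop, and whose second exon is at chr13:21880893-21881082. The deposited files also count the annotated exons with more than 10 reads, and these numbered 0 in the PND 7 libraries, 2 in all PND 14 and 17 mice, 2 and 3 in the PND 21 mice and 3 in both PND 28 mice. Total reads of Hist1h2bp by mouse were 17 and 6 (PND 7), 79 and 22 (PND 14), and 81 and 26 (PND 17). Later totals were 37 and 43 (PND 21), then 268 and 140 (PND 28). A count over a fixed limit of 10 reads depends on such totals, so it cannot show a change in exon use. The single exon also overlaps the first exon of the spliced transcript. Counts per exon were not analysed here, and 52.3% of the 50-base windows of this gene were unique.

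Hist2h2be, in cluster 2, had 2.87 and 1.75 normalised RPKM in the PND 7 mice, 3.95 and 5.42 in the PND 14 mice, 8.95 and 3.79 in the PND 17 mice, 15.8 and 9.75 in the PND 21 mice, with 14.1 and 8.90 in the PND 28 mice. Every PND 28 mouse lay above every PND 7 mouse, with a log2 fold change of 2.31 ± 0.47 (edgeR adjusted p = 0.00145). From PND 14 and 17 to PND 21 and 28 it was 1.13 ± 0.32 (edgeR adjusted p = 0.0133), where the groups overlapped through PND 17 mouse 1. This call was lost in 8 of 23 alternatives. They were leaving out PND 17 mouse 2, PND 21 mouse 1 or PND 28 mouse 1, library totals for scaling, an adjusted p under 0.01 and every limma setting. Values lay between 0.80 and 1.52 over all alternatives. Its exon is annotated with 2618 bases, longer than the median member, it had no stem-loop match in the 200 bases after the stop codon, and 99.2% of its windows were unique. It was the only one of the 8 tested members without a match that was called higher, and 3 of these 8 were called lower between PND 14 and 17 and PND 21 and 28, beside 29 of the 51 with a match.

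The small clusters followed the large one in part. In cluster 2, the H2B gene Hist2h2bb fell from 21.9 and 22.1 normalised RPKM at PND 14 to 9.20 and 6.11 at PND 28, and between PND 14 and 17 and PND 21 and 28 its log2 fold change was -1.23 ± 0.23 (edgeR adjusted p = 0.00160). The H2A gene Hist2h2ac and the H4 gene Hist2h4 fell between PND 7 and PND 28 by 2.08 ± 0.43 and 1.90 ± 0.67 on the log2 scale. The call of Hist2h4 was lost in 5 of 23 alternatives, among them without PND 7 mouse 1 or PND 28 mouse 2, with values from -2.92 to -1.04 over all alternatives. Hist2h2aa1, Hist2h2ab, Hist2h3c1 and Hist2h3c2 were called in none of the comparisons between ages. Hist2h2aa1 and Hist2h2aa2 have no unique window, and Hist2h2aa2 had 0 counts in all mice. In cluster 3, the H2B gene Hist3h2ba was at 40.7 and 13.4 at PND 7, at 67.8, 60.6, 61.3 and 62.4 at PND 14 and 17, and at 8.85, 35.5, 21.8 and 17.5 at PND 21 and 28, a log2 fold change of -1.58 ± 0.41 (edgeR adjusted p = 0.00891) in the 4 against 4 comparison. Hist3h2a, the most abundant H2A gene, Hist3h2bb-ps and Hist4h4 of cluster 4 were not called in any of the 6 comparisons of one age or pair of ages with another, and in the test for a change at any age Hist3h2a passed (edgeR adjusted p = 0.048). From PND 14 and 17 to PND 21 and 28 its log2 fold change was -0.65 (edgeR adjusted p = 0.00946), under the fold needed for a call.

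Genes of the same pathway were counted from lists, which were not tested as sets. Between PND 14 and 17 and PND 21 and 28, 8.03% of all tested genes were called lower and 21% higher. Of 41 S phase genes, which copy DNA or make its precursors, 7 were called lower and 2 higher between PND 14 and 17 and PND 21 and 28, with a median log2 fold change of -0.38. The replication helicase gene Mcm2 and the thymidine kinase gene Tk1 fell by 1.55 ± 0.23 and 1.56 ± 0.46 on the log2 scale, whereas Rpa1, which encodes a single-strand DNA binding protein, rose by 1.46 ± 0.17. Of 17 genes for the synthesis, processing and decay of histone mRNA, 1 was called, Ncbp1 of the cap binding complex, at a log2 fold change of 1.53 ± 0.18. Slbp, which encodes the stem-loop binding protein, was at 15.4, 13.7, 13.7 and 13.8 normalised RPKM at PND 14 and 17 and at 17.2, 16.7, 17.4 and 18.5 at PND 21 and 28, and Npat, a coactivator of histone gene transcription, had a log2 fold change of -0.38. Neither was called, and both are named for their function and not by a rule. Of 17 histone chaperone and assembly genes, 3 rose and 1 fell, with Nasp, a chaperone of H1 and H3-H4, at 2.08 ± 0.27 and Atrx at -1.10 ± 0.19.

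Between PND 14 and 17 and PND 21 and 28, markers of some cell types fell and those of others rose. The shares called among all tested genes were 8.03% lower and 21% higher. Of 11 spermatogonia markers, 7 fell between PND 14 and 17 and PND 21 and 28 and none rose, with a median log2 fold change of -1.29. Their summed CPM lay between 827.1 and 965.7 in the PND 7 mice, 1070 and 1172 in the PND 14 mice, 1055 and 1184 in the PND 17 mice, 647.3 and 723.7 in the PND 21 mice, with 499.5 and 530.1 in the PND 28 mice, and none of the 11 was at 0 at any age. From PND 7 to PND 14 none of the 11 was called and their median log2 fold change was -0.20, though their sum was higher at PND 14. Of 11 Sertoli cell markers, 5 fell and none rose between PND 14 and 17 and PND 21 and 28, with a median log2 fold change of -1.01. Of 5 peritubular myoid markers, 2 fell and none rose, with a median log2 fold change of -0.96, and their mean summed CPM was 376.2 in the PND 14 mice and 167.2 in the PND 28 mice. Of 10 proliferation markers, which include genes of mitosis and meiotic division, 3 rose and none fell. Of 9 spermatid markers, all rose. Of 10 spermatocyte markers, 4 rose and 1 fell, with a median log2 fold change of 0.76. Of 7 Leydig cell markers, 3 rose and none fell, with a median of 0.22. Of 6 tested macrophage and blood markers, none was called. The part of these cell types in the levels of the members was not tested.

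The 3 germ cell variants left out of the set carry cluster 1 symbols and matched the stem-loop, and all 3 were called higher from PND 7 to PND 14. Hist1h1t, the testis linker histone, had 12.7 and 11.7 normalised RPKM in the PND 7 mice, 281.1 and 463.2 in the PND 14 mice, 341.0 and 777.9 in the PND 21 mice, with 553.3 and 460.5 in the PND 28 mice. From PND 7 to PND 14 it rose by 4.93 ± 0.43 on the log2 scale (edgeR adjusted p = 3.13e-05), and Hist1h2ba and Hist1h2aa, the testis variants of H2B and H2A, rose by 2.42 ± 0.35 and 1.54 ± 0.29. From PND 14 and 17 to PND 21 and 28 their log2 fold changes were 0.32, -0.54 and -0.99, and none of the 3 was called, Hist1h2aa for the size of its fold change alone (edgeR adjusted p = 0.00270).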

How the data were processed

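Per the study's methods, the authors removed ribosomal RNA from the RNA of whole testes and sequenced 50 base reads on the SOLiD 4. LifeScope v2.1 placed the reads on mm9, and reads from ribosomal RNA, transfer RNA or repeats, or with over 10 alignments, were dropped. The authors deposited raw counts per Ensembl gene, which the methods describe as unique reads, and the RPKM, which divides the count by exon length and counted reads. Whether strand was used is not given in the sources used here. Nothing was realigned.

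After TMM scaling and filterByExpr, edgeR 4.0.16 (R 4.3.3) tested the counts by quasi-likelihood in 1 fit of all 10 mice, with p-values adjusted over all 16860 genes tested. Replicates are mice, 2 per age, and an exact permutation test of 2 against 2 cannot go below 0.333 (4 against 4, 0.0286), so calls rest on the spread shared across genes. Alternatives were DESeq2 1.42.0, limma 3.58.1 on log2(RPKM + 1) and other settings. The fit was also run on simulated counts, with the same spread for all genes and few changed genes. These settings differ from the data, so nothing about the calls is concluded from that run. Symbols and stem-loops used the annotation GENCODE M1 and mm9, and promoters RefSeq. The members, lists and motifs were chosen with earlier results of these data known. Members were named by rule: the 3 highest of each class, the 4 largest called rises and falls of a comparison, calls against the majority and all tested members of the clusters other than the first.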

Additional observations from a re-analysis of the deposited data

How the results depend on the processing

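The fold changes of 50 combinations of a named member and a comparison kept their sign in all 1144 alternative values, and kept their call in 990 of them. Counts of members called were within 1.5 times the reported count under all alternatives except the following. From PND 7 to 14, where 5 were called, the count was 11 with PND 7 barcodes kept apart, 2 at an adjusted p under 0.01, 10 without the filter and 3 with only the ages compared. From PND 17 to 21, also 5, it was 9 with barcodes apart, 0 at the stricter p, 10 with library totals for scaling, 9 with limma under the study's criteria, 9 with a pseudocount of 0.1 and 16 without the filter. From PND 21 to 28, where 1 was called, it was 0 at the stricter p, with library totals and with limma at a pseudocount of 1. From PND 7 to 28, where 32 were called, it was 19 at the stricter p and 21 under the study's criteria. For PND 14 and 17 against PND 21 and 28, where 34 were called, it was 22 at the stricter p, and for a change at any age, where 33 of 59 were called beside 57.5% of all tested genes, it was 15. The cause was not tested. Leaving out 1 mouse in turn gave 3 to 10, 0 to 12, 0 to 1, 20 to 34 and 21 to 38 members in these comparisons and 20 to 36 at any age. Mice share only a number across ages, with correlations of their deviations from -0.17 to 0.34 and over 0.1 in 2 of 10 pairs of ages. With mouse number as a replicate block, 4, 0, 4, 1, 29 and 33 members were called in the comparisons in the order of PND 7 to 14, 14 to 17, 17 to 21, 21 to 28, 7 to 28 and 14 and 17 to 21 and 28, and 30 at any age. Scaling by library totals moved the median log2 fold change of all genes to -0.31 for PND 14 and 17 against PND 21 and 28, beside -0.05 as reported, and 39 members were then called lower. Members under about 10 reads per age, and those with little unique sequence, limit what these counts can show.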
